A study of Mus musculus with 6 samples.

Results

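The 45 genes described here encode the enzymes and carriers that take glucose through glycolysis, the pentose phosphate pathway and the tricarboxylic acid (TCA) cycle in mouse CD4 T cells. They were chosen by gene symbol from the 22608 genes of the expression table, and 41 of the 45 were found under their own or an older symbol. The other 4 (Fh1, G6pdx, Gapdh and Mdh2) stood under a human or combined symbol and were found by their RefSeq accession. They fall into 6 groups of 4 glucose and lactate carriers, 15 enzymes of glycolysis, 2 lactate dehydrogenase subunits, 6 enzymes of the pentose phosphate pathway, 3 genes of the pyruvate dehydrogenase step and 15 genes of the TCA cycle.

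The data were 6 RNA-seq libraries, 3 for each of 2 retroviral vectors. Naive CD4 cells (CD44lo, CD62L+, CD25neg) of wild-type C57/BL6 mice were activated for 36 hours by anti-CD3 and anti-CD28 (10 ug/ml), with IFN-gamma and IL-4 blocked by antibodies. They were then transduced with MigR1, a retroviral vector with a GFP marker, that was either empty or carried the Blimp-1 cDNA, and GFP+ cells were sorted 2 days later (another label counts 3 days of activation). The animals' age is not given here. Libraries of the empty vector are called controls below. Blimp-1, the product of Prdm1, is a transcriptional repressor. All cells thus carried a retrovirus, and Blimp-1 came from the vector's promoter on top of the cells' own gene. The labels name 3 independent biological replicates and do not say what a replicate number marks.

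Naive T cells rely mainly on oxidation of pyruvate and fatty acids in mitochondria. On activation they take up more glucose and turn much of the pyruvate into lactate, while the pentose phosphate pathway provides ribose and NADPH for growth and the TCA cycle provides precursors for lipids and amino acids. Myc and HIF-1 are well known activators of glycolytic genes in these cells.

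Prdm1 was at 0.996, 2.03 and 1.38 FPKM in empty vector replicates 1 to 3 and at 9.91, 12.8 and 9.45 FPKM in the Blimp-1 libraries, a log2 difference of 2.26 (SE 0.19) whose limma adjusted p was 0.0567, or 0.00498 with the replicate number as a block. The vector labels thus hold, and FPKM (reads by transcript length and library depth) gives a share of the RNA pool. Estimated depth was 17.2 to 46.1 M reads, lowest in empty vector replicates 3 (17.2) and 1 (17.9). The 6 CD4 T cell markers summed to 1606 to 1987 FPKM in controls and 1595 to 1829 with Blimp-1. Markers of other cells were present in part. The NK marker Klrd1 was at 12.7, 26.2 and 3.16 FPKM in controls and at 15.1, 30.4 and 12.8 under Blimp-1, and Cd8b1 was at 7.01 to 10.9 FPKM, while Cd8a stayed at 0.1 to 0.169 FPKM and Ncr1 was listed at 0 in every library. In all, 1 of 2 CD8 T cell, 1 of 4 B cell, 2 of 4 NK cell and 0 of 5 myeloid markers reached 1 FPKM in mean, and the myeloid sum was at most 1.41. The CD8 markers summed to 7.18 to 10.4 FPKM in controls and 7.94 to 11 under Blimp-1, and the B cell markers to 1.63 to 4.79 and 1.48 to 5.72. Empty vector replicate 3 stood apart. Of the 10856 genes tested, 3160 (29.1%) had their highest value there, the haemoglobin gene Hba-a1 was at 18.7 FPKM against 0.318 to 2.98 elsewhere, and the NK markers summed to 3.34 FPKM there (3.34 to 28.4 over controls, 13.7 to 35.3 under Blimp-1). The summed erythroid markers were at 2.01 to 18.7 FPKM in controls against 0.33 to 3.02 under Blimp-1. The part of these cells in the results below was not tested. In bulk RNA, fewer cells of a type and less RNA per cell cannot be told apart.

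All 45 genes were at 1 FPKM or more in all 6 libraries, so no gene entered the test through 1 vector alone. Their values ran from 5.76 FPKM for Idh1 to 3893 FPKM for Gapdh, and the 5 most abundant were Gapdh, Aldoa, Pgk1, Pkm and Ldha. Together the 45 genes took 2.64%, 2.28% and 2.89% of the summed FPKM in empty vector replicates 1, 2 and 3, and 2.74%, 2.37% and 2.38% in the Blimp-1 libraries. The 15 glycolytic enzymes made up most of this, at 8863 to 12593 summed FPKM, and the 15 TCA cycle genes summed to 625 to 778. The replicate pairs disagreed in direction. The summed FPKM of the 45 genes with Blimp-1 was 1.03, 1.01 and 0.794 times that in controls in pairs 1, 2 and 3. With all libraries the ratio of means was 0.93, and without empty vector replicate 3 it was 1.02.

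No gene of the 45 passed the test between the vectors. Limma on log2(FPKM + 1), adjusted over the 10856 genes by Benjamini-Hochberg, called 0 as higher and 0 as lower, among 0.0% of all genes called, with the lowest adjusted p at 0.998. At an unadjusted p below 0.05 there were also 0 of the 45, against 1.12% of all genes. The replicate numbers paired the libraries, and with the replicate number as a block the fit again called 0 of the 45 (lowest adjusted p = 0.142 by limma), against 0.0184% of all genes. With the block, 7 of the 45 (15.6%) were lower and 0 higher at an unadjusted p below 0.05, where all genes had 10.7% lower and 9.76% higher. Most of the 45 genes are abundant, and among genes at 20 FPKM or more in mean 15.7% were lower and 7.45% higher by the same measure, so the share of lower genes was close to that of abundant genes in general. The 7 were Taldo1, Pgd, Pdk1, Aldoc, Suclg1, Tpi1 and Ldha.

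The differences were small and leaned to lower values with Blimp-1. The median log2 difference of the 45 genes was -0.11, beside -0.01 for all genes tested, and 34 of 45 (75.6%) had a lower mean, beside 52.1% of all genes and 57.7% of those at 20 FPKM or more. The medians were -0.06, 0.00 and -0.31 in pairs 1, 2 and 3, where all genes were at 0.00, 0.00 and -0.01. In pair 3, 37 of 45 genes (82.2%) were lower, against 28 (62.2%) in pair 1 and 22 (48.9%) in pair 2. Among genes at 20 FPKM or more, 53.5%, 53.4% and 61.4% were lower in pairs 3, 1 and 2. In 35 of 45 genes pair 3 had the most negative difference of the 3. Without empty vector replicate 3, the median of the 45 genes was 0.01, with 20 genes lower and 25 higher. That comparison keeps Blimp-1 replicate 3 without its partner. Over pairs 1 and 2 alone, with the replicate block, the median was -0.02, with 27 genes lower and 18 higher. Genes at 20 FPKM or more had a median of -0.03 over these pairs, with 2075 lower and 1480 higher. The lean left in pairs 1 and 2 was thus close to that of abundant genes in general. Most of the size of the median of the 45 genes came with pair 3. Of the 45 genes, 15 (33.3%) were lower and 4 higher in 3 of 3 pairs, beside 22.8% lower and 22.9% higher of all genes, and 30.5% and 19.2% of genes at 20 FPKM or more. After quantile normalization the counts were 9 and 5, and Slc2a1, Hk1, Pfkl, Eno1, Pgls and Tkt no longer counted among the lower genes. The libraries of the vectors did not overlap for 1 gene, Suclg1, which was lower, where 2.34% of all genes were lower in this way and 2.28% higher.

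**Figure D1:**
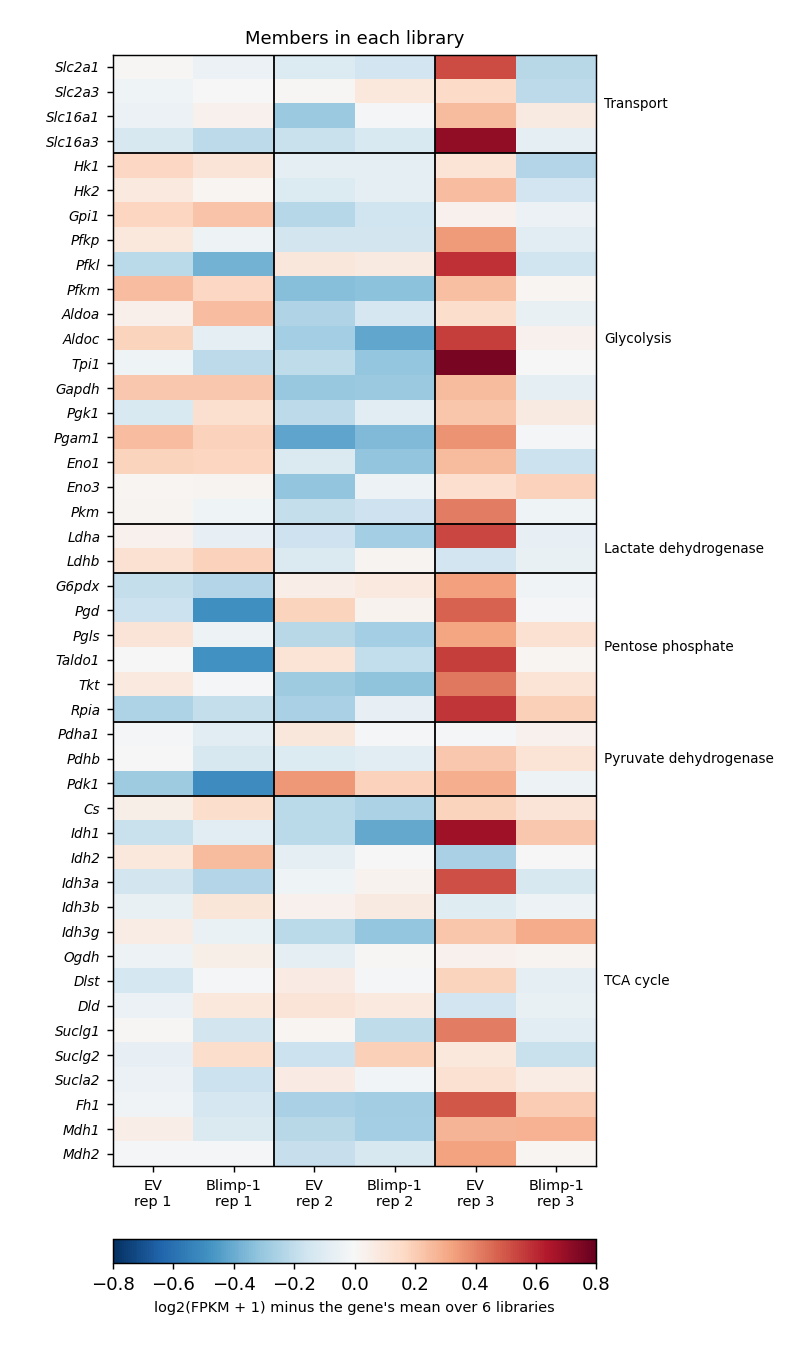
Each row is 1 of the 45 genes and each column 1 library, ordered by replicate pair (EV, empty vector). Colour gives log2(FPKM + 1) minus the gene's mean over the 6 libraries. Empty vector replicate 3 is the highest library for 30 of the 45 genes, and pair 2 is low for most glycolytic enzymes.

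Empty vector replicate 3 was the highest of the 6 libraries for 30 of the 45 genes (66.7%), where this held for 29.1% of all genes and 36.4% of genes at 20 FPKM or more. It lay above both other empty vector libraries for 36 (80%), against 37.9% of all genes and 44.3% of genes at 20 FPKM or more. Its excess over the mean log2 value of those libraries had a median of 0.36. This was 0.00 for all genes and 0.05 for genes at 20 FPKM or more. Blimp-1 replicate 3 exceeded its vector's other libraries by a median of 0.07 only. The library held all 4 carriers, 10 of 15 glycolytic enzymes and all 6 pentose phosphate genes at their highest value, but 8 of 15 TCA cycle genes and 1 of 3 genes of the pyruvate dehydrogenase step. At the other end, 12 of 15 glycolytic enzymes had their lowest value in a replicate 2 library, of either vector. This held for 29.4% of all genes and 39.8% of genes at 20 FPKM or more. The heat map by library shows both patterns as columns.

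Carriers bring glucose in and lactate out of the cell. Slc2a1, which encodes the glucose transporter GLUT1, was at 73.3, 67.5 and 105 FPKM in controls against 70.6, 65.5 and 62.3 under Blimp-1. The pair 1 and pair 2 libraries nearly matched, and the log2 difference of -0.28 (SE 0.18, limma adjusted p = 0.998) came mainly from pair 3 (-0.75). Slc16a3, the lactate exporter MCT4, was at 66.5, 64.3 and 120 FPKM against 62.9, 66.8 and 69.3. All libraries but empty vector replicate 3 lay within a narrow range, and without that library its log2 difference was 0.02. Slc2a3, which encodes GLUT3 and stood above Slc2a1 in every library, was at 153, 159 and 175 FPKM against 157, 166 and 136. The Slc2a3 share of the summed FPKM of both glucose transporters was 66.7% ± 3.94 in controls and 69.8% ± 1.72 with Blimp-1 (SD, n = 3 each), an overlapping range. Slc16a1, the monocarboxylate transporter MCT1, was far lower than Slc16a3 at 8.31 to 12.7 FPKM, with pair differences of 0.09, 0.28 and -0.18 on the log2 scale.

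The first steps of glycolysis trap and split glucose. Hk1 and Hk2, the hexokinases, were at 83.1 ± 7.11 and 26.8 ± 3.4 FPKM in controls against 75.6 ± 8.82 and 24 ± 1.46 under Blimp-1 (SD, n = 3 each). Hk2, the isozyme tied to activated and tumour cells, took 24.4% ± 1.58 of the pair's FPKM in controls and 24.2% ± 1.03 with Blimp-1. Phosphofructokinase commits sugar to the pathway, and Pfkp was its main subunit at 60.4% to 63.6% of the summed FPKM of Pfkl, Pfkm and Pfkp in all libraries. Pfkl was at 35.3, 43.9 and 62.1 FPKM in controls against 31.4, 43.2 and 36.7 under Blimp-1. Its log2 difference was -0.17, -0.02 and -0.74 in the 3 pairs, so only pair 3 was far from 0. Gpi1, which makes fructose 6-phosphate, had a log2 difference of 0.01 (SE 0.16).

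The next steps split the sugar and interconvert its parts. Aldoa, the main aldolase, was at 2018, 1662 and 2157 FPKM in controls against 2328, 1788 and 1883 under Blimp-1, higher with Blimp-1 in pairs 1 and 2 and lower in pair 3. Aldoc, a second aldolase, was at 103, 75.3 and 134 FPKM against 86.5, 68.1 and 93.4, lower in 3 of 3 pairs. Its log2 difference was -0.31 (SE 0.23, limma adjusted p = 0.998; 0.174 with the block). Tpi1, which interconverts the triose phosphates, was at 437, 388 and 759 FPKM against 387, 362 and 446. It was lower in each pair, by 0.18, 0.10 and 0.76 in log2 terms, and empty vector replicate 3 alone set it far above the rest. Without that library its difference was -0.05, and over pairs 1 and 2 alone it was -0.14.

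The later steps of glycolysis yield ATP and pyruvate. Gapdh, the most abundant of the 45 genes, was at 3798, 2649 and 3893 FPKM in controls against 3807, 2661 and 3097 under Blimp-1. Pairs 1 and 2 matched within 0.01 on the log2 scale, while the replicates of each vector differed by far more than the vectors did. Reads of Gapdh can also come from its processed copies. Pgk1, phosphoglycerate kinase, was at 1386, 1305 and 1760 FPKM against 1652, 1422 and 1589, higher with Blimp-1 in pairs 1 and 2 (log2 differences 0.25 and 0.12) and lower in pair 3 (-0.15). Pgam1, Eno1 and Pkm, the next 3 enzymes, had log2 differences of -0.12, -0.21 and -0.16 with SE of 0.24, 0.17 and 0.17. Eno1 sums 2 deposited rows, and RefSeq names the second as Eno1b, a copy of the gene that held 27.3% to 43% of the sum. Eno3, the muscle enolase, was low at 9.3 to 13.6 FPKM and higher with Blimp-1 in 3 of 3 pairs (log2 difference 0.11, SE 0.15), with 1 row summed that had no symbol in the deposited table. For Pkm, pyruvate kinase, the transcript of the M2 form made up 89.7% to 92% of the gene's FPKM in the 6 libraries and that of M1 the rest.

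Lactate dehydrogenase joins glycolysis to lactate. Ldha, the subunit that favours lactate formation, was at 1023, 888 and 1447 FPKM in controls against 952, 824 and 954 under Blimp-1. It was lower in each pair, by 0.10, 0.11 and 0.60 on the log2 scale, though empty vector replicate 2 lay below the Blimp-1 replicates 1 and 3. Ldhb, the subunit of oxidative tissues, was higher with Blimp-1 in 3 of 3 pairs by 0.06, 0.14 and 0.10, from 26 ± 2.85 to 27.9 ± 2.5 FPKM (SD, n = 3 each). Neither passed (limma adjusted p = 0.998 each; 0.242 and 0.4 with the block). Ldha made up 97.6% ± 0.644 of both subunits' FPKM in controls and 97% ± 0.31 with Blimp-1, lower in 3 of 3 pairs.

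**Figure D2:**
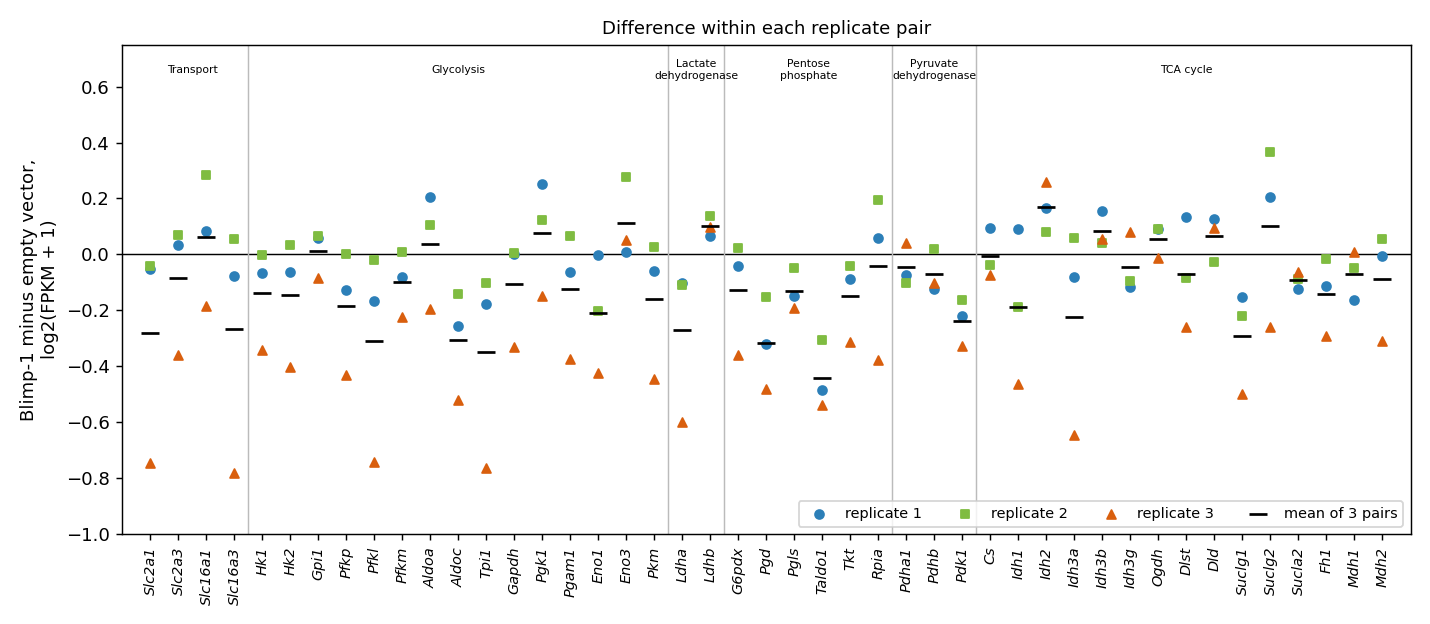
Each point is Blimp-1 minus empty vector in log2(FPKM + 1) for 1 gene in 1 replicate pair, and the bar is the mean of the 3 pairs. Points of replicate 3 lie lowest for 35 of the 45 genes, and Taldo1 has the lowest mean (-0.44).

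The lowest mean log2 difference among the 45 genes was that of a gene in the pentose phosphate pathway. Its oxidative arm makes NADPH and its other arm exchanges sugars with glycolysis. Taldo1, which encodes transaldolase of the sugar-exchange arm, was at 60.2, 65 and 88.6 FPKM in controls against 42.8, 52.4 and 60.7 under Blimp-1. It was lower in 3 of 3 pairs by 0.48, 0.30 and 0.54 on the log2 scale, and only the highest Blimp-1 library overlapped the lowest empty vector library. Its mean of 71.3 ± 15.2 FPKM in controls stood against 52 ± 8.99 (SD, n = 3 each). The ratio was 0.729, or -0.44 in log2 terms (SE 0.19, or 0.07 with the block). Its limma adjusted p was 0.998, or 0.142 with the block (unadjusted p = 0.00111). Over 20 other fits the log2 difference stayed between -0.56 and -0.28, the latter without empty vector replicate 3. Pgd, 6-phosphogluconate dehydrogenase of the oxidative arm, was at 24.8, 31.9 and 39.3 FPKM against 19.7, 28.6 and 27.8. It was lower in 3 of 3 pairs by 0.32, 0.15 and 0.48, the replicates of each vector spread more widely than this, and the limma adjusted p was 0.998, or 0.159 with the block.

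The other 4 genes of the pathway differed less between the vectors. G6pdx, the first and rate-limiting enzyme, was at 12.8 ± 2.49 FPKM in controls against 11.6 ± 1.36 under Blimp-1 (SD, n = 3 each), with pair differences of -0.04, 0.02 and -0.36. Pgls and Tkt, a lactonase and transketolase, had log2 differences of -0.13 and -0.15 and were lower in 3 of 3 pairs as deposited, though not after quantile normalization. Rpia, which makes ribose 5-phosphate, was at 24 FPKM in empty vector replicate 3 against 13.1 to 18.2 in the other libraries. Together the 6 genes summed to 338 ± 70.8 FPKM in controls and 289 ± 33.4 with Blimp-1, and the ratio within pairs 1, 2 and 3 was 0.879, 0.934 and 0.782.

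**Figure D3:**
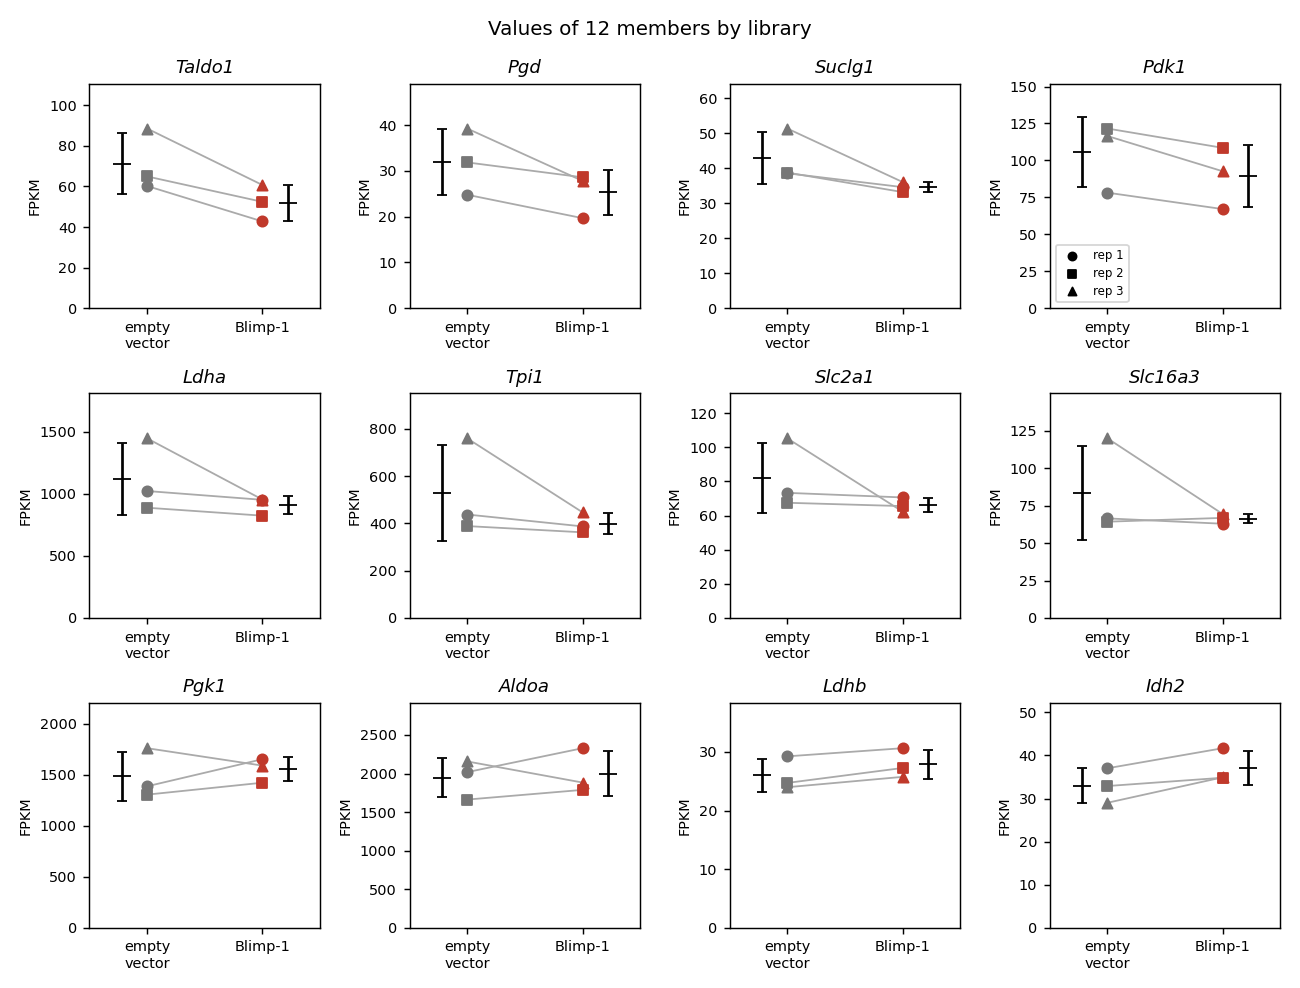
FPKM of 12 genes in each library, with lines joining libraries of the same replicate number and bars for mean ± SD (n = 3). Lines slope down in all 3 pairs for Taldo1, Pgd, Suclg1, Pdk1, Ldha, Tpi1 and Slc2a1, and up for Ldhb and Idh2.

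Pyruvate dehydrogenase feeds pyruvate into the TCA cycle, and its kinases switch it off. Pdk1, the kinase, was at 78.2, 122 and 117 FPKM in controls against 67, 108 and 92.6 under Blimp-1. Both replicate 1 libraries were the lowest of their vector, and each pair differed by a similar amount (-0.22, -0.16 and -0.33). The limma adjusted p was 0.998, or 0.163 with the block. The enzyme's own subunits Pdha1 and Pdhb had log2 differences of -0.05 and -0.07, and both had SE of 0.11 to 0.14.

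In the TCA cycle the gene farthest from 0 in mean log2 difference was at the succinate step. Suclg1, the subunit shared by both forms of succinyl-CoA synthetase, was at 38.5, 38.7 and 51.3 FPKM in controls against 34.6, 33.2 and 36 under Blimp-1. The vectors did not overlap. Control mean was 42.9 ± 7.33 FPKM and Blimp-1 mean 34.6 ± 1.43 (SD, n = 3 each), and the log2 difference was -0.29 (SE 0.15; limma adjusted p = 0.998, or 0.181 with the block). Of its partner subunits, Sucla2 of the ATP-forming enzyme was lower in 3 of 3 pairs by at most 0.12, and Suclg2 of the GTP-forming enzyme was at 10.2, 9.34 and 11.4 FPKM against 11.9, 12.3 and 9.34. Suclg2 was thus higher with Blimp-1 in pairs 1 and 2 (0.20 and 0.36) and lower in pair 3 (-0.26).

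Isocitrate dehydrogenase exists in NADP and NAD forms, and no gene of either passed the test. Idh2, the NADP enzyme of mitochondria, was at 37, 32.9 and 29 FPKM in controls against 41.7, 34.8 and 34.9 under Blimp-1, higher in 3 of 3 pairs (log2 difference 0.17, SE 0.14, limma adjusted p = 0.998; 0.244 with the block). Idh1, its cytosolic counterpart and the lowest of the 45 genes, was at 6.92, 6.71 and 13.3 FPKM against 7.44, 5.76 and 9.41. Both replicate 3 libraries were the high ones. The NAD enzyme had Idh3b at 106 ± 4.9 and 112 ± 5.72 FPKM (SD, n = 3 each), higher in 3 of 3 pairs, and Idh3a at 9.1, 9.96 and 15 FPKM against 8.55, 10.4 and 9.24. Idh3g had a log2 difference of -0.04.

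The remaining genes of the cycle had mean log2 differences of -0.14 to 0.06. Cs, which makes citrate, was at 65.5 ± 8.93 FPKM in controls and 65.3 ± 9.46 with Blimp-1 (SD, n = 3 each). Ogdh, Dlst and Dld of the 2-oxoglutarate dehydrogenase complex had log2 differences of 0.06, -0.07 and 0.06, with SE of 0.11, 0.13 and 0.12. Fh1, fumarase, was at 25.5, 21.6 and 37 FPKM against 23.6, 21.3 and 30.1, lower in 3 of 3 pairs but with both replicate 3 libraries above the rest. Mdh1 and Mdh2, the cytosolic and mitochondrial malate dehydrogenases, had log2 differences of -0.07 and -0.09. The TCA cycle genes had a median of -0.07, beside -0.14 for glycolytic enzymes, -0.18 for the carriers and -0.14 for the pentose phosphate genes, and without empty vector replicate 3 these medians were 0.06, -0.01, -0.01 and -0.00. Over pairs 1 and 2 alone they were 0.02, -0.02, 0.02 and -0.08.

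Isozyme shares are not moved by a factor that scales a whole library. Over 11 shares, 3 libraries against 3 allow no exact permutation p below 0.1, and the lowest adjusted p was 0.786. The Slc16a3 share of both lactate carriers was the 1 share without overlap. It was at 86.8%, 88.6% and 90.4% in controls against 85.4%, 86.6% and 86.3% with Blimp-1, lower in 3 of 3 pairs. Its exact permutation p was 0.1, two-sided (adjusted p = 0.786). With only the most abundant transcript of each gene, the Slc16a3 shares of the vectors overlapped (difference -4.14 percentage points, exact permutation p = 0.3). The Aldoc share of both aldolases was 5.02% ± 0.776 against 3.99% ± 0.635 (SD, n = 3 each), and the Idh1 share of Idh1 and Idh2 was 15.7%, 16.9% and 31.5% against 15.1%, 14.2% and 21.2%. Both were lower in 3 of 3 pairs. The share of Suclg2 among the partner subunits was higher in pairs 1 and 2 and lower in pair 3, by 5.98, 8.07 and -3.51 percentage points.

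**Figure D4:**
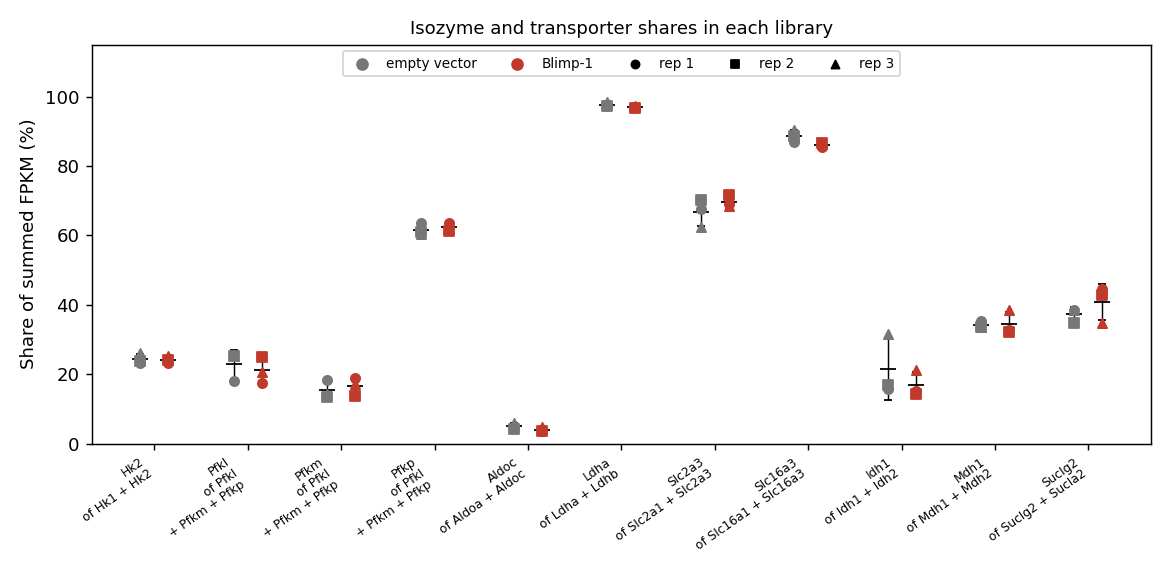
Each point is the share of 1 gene in the summed FPKM of its isozyme or transporter set in 1 library, in percent, with mean ± SD (n = 3). The vectors overlap in every set but that of Slc16a3, and the Idh1 share stands out in empty vector replicate 3.

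When the block was kept and pair 3 dropped, limma called 2 of the 45 genes as lower, Taldo1 (log2 difference -0.39, adjusted p = 0.00177) and Pgd (-0.24, adjusted p = 0.0499), and 2 as higher, Pgk1 (0.19, adjusted p = 0.0312) and Suclg2 (0.28, adjusted p = 0.0249). That fit has 1 residual degree of freedom and called 11.2% of all genes, so 4 of 45 is near its background. Fits without pair 1 or pair 2 called 0 of the 45, against 0.0276% and 0.276% of all genes.

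The starts of 43 of the 45 genes were matched to RefSeq promoter windows of build GRCm38.p6, from 250 bases before to 50 after the start. A gene counted as holding a motif if any of its windows did. The number of windows differed between genes and was not matched. ACGTG or GCGTG, the core letters read by HIF-1, were found on either strand in 35 of 43 (81.4%), against 68.3% of the tested genes and 46.7% of all genes in that table. CACGTG, the E-box read by Myc, contains ACGTG and was in 4 of 43 (9.3%), against 12.1% of the tested genes. GAAAG, part of the sequence that Blimp-1 binds, was in 27 of 43 (62.8%), against 57.2%. These counts describe letters and not bound sites. The 250 bases before the start are shown for Taldo1, which had the lowest mean difference, for Ldha, and for Pgk1, which went the other way in pairs 1 and 2. All 3 lie on the plus strand at chr7:141391910-141392159, chr7:46845554-46845803 and chrX:106186850-106187099, and capitals mark these motifs on either strand.
Taldo1: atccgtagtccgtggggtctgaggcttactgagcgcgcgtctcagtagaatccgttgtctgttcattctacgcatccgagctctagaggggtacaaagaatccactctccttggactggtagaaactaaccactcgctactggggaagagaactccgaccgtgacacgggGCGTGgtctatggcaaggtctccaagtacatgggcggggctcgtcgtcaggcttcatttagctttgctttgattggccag
Ldha: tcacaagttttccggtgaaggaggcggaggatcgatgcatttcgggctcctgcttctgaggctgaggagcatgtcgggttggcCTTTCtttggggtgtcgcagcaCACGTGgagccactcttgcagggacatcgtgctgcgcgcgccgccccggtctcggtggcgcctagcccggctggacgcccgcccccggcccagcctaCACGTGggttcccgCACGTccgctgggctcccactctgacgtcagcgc
Pgk1: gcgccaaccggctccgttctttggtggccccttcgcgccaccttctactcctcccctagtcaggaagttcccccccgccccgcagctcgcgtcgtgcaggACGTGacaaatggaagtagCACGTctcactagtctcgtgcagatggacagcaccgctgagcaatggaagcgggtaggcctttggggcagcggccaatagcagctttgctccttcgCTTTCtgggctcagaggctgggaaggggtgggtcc
The Ldha window holds CACGTG at positions -145 and -48 before the start, the Pgk1 window ACGTG or its reverse complement at -150 and -131, and the Taldo1 window GCGTG at -80. GAAAG or its reverse complement is at -167 for Ldha and -35 for Pgk1.

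Of 82 further genes of these pathways, listed by role, 59 were tested and limma called 0, with 0 at an unadjusted p below 0.05 without the block. With the block 0 were called, and 6 (10.2%) were higher and 9 (15.3%) lower at an unadjusted p below 0.05. By this measure all genes had 9.76% higher and 10.7% lower, and genes at 20 FPKM or more 7.45% and 15.7%. The median log2 difference of the 59 genes was -0.02. The largest differences at 5 FPKM or more in mean were those of Eno2, the neuronal enolase (0.39), Pdpr, a regulator of pyruvate dehydrogenase phosphatase (0.29), Adpgk, an ADP-dependent glucokinase (-0.51), and Pcx, pyruvate carboxylase (-0.44). Pcx was at 9.79, 5.27 and 22 FPKM in controls against 7.41, 5.67 and 10.1 under Blimp-1, so empty vector replicate 3 was again the high library. Among the genes whose vectors did not overlap were Rbks, ribokinase (-0.30), and Pdp1, a pyruvate dehydrogenase phosphatase (0.15). Of all genes, 2.34% were lower and 2.28% higher without overlap. Mpc1 and Mpc2, the mitochondrial pyruvate carrier, and Sdhb, a succinate dehydrogenase subunit, were lower in 3 of 3 pairs. Their log2 differences were -0.21, -0.22 and -0.33, and these 3 were named after their values were seen. The other succinate dehydrogenase subunits differed less than Sdhb, with log2 differences of -0.04 for Sdha, -0.13 for Sdhc and -0.02 for Sdhd. Sdha was lower in 3 of 3 pairs, and Sdhc and Sdhd were lower in 2. Of the 59 genes, 16 (27.1%) were lower and 12 (20.3%) higher in 3 of 3 pairs, beside 22.8% and 22.9% of all genes.

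Of 25 regulators listed, 22 were tested and 0 called. Among the 22, 8 (36.4%) were lower and 5 (22.7%) higher in 3 of 3 pairs, beside 22.8% and 22.9% of all genes. The median log2 difference of the 22 was -0.06. The vectors did not overlap for Egln2 and Nrf1, both lower, where 2.34% of all genes were lower in this way. Hif1a, the HIF-1 subunit that oxygen controls, was at 73.8, 58.6 and 38.3 FPKM in controls against 99, 80.9 and 56.4 under Blimp-1, higher in 3 of 3 pairs by 0.42, 0.46 and 0.55 (limma adjusted p = 0.998; 0.142 with the block). Txnip, which restrains glucose uptake, was at 350, 432 and 280 FPKM against 493, 527 and 374, also higher in 3 of 3 pairs. Myc was at 29.1, 26.3 and 60.2 FPKM against 27.2, 31.5 and 30.4, so its high library was empty vector replicate 3. These 3 were named after their values were seen. With the block and without both replicate 3 libraries, 8 of the further genes and regulators were called, among them Eno2, Hif1a, Irf4 and Txnip as higher and Adpgk, Me2 and Sdhb as lower, beside 11.2% of all genes.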

How the data were processed

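Per the labels, total RNA (2 ug) of about 0.5 M sorted cells went into TruSeq libraries that were read once from 1 end over 50 cycles. The authors deposited FPKM per RefSeq transcript, 29868 rows. CASAVA 1.8.2, Cufflinks 2.2, Partek 6.6 and mm9 are listed in the submitters' processing notes, which give neither roles nor order. Strand setting and filters were not given in the sources here. An exact 0 may be an estimate that failed.

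Rows were named through RefSeq accessions of GRCm38.p6 (29310 rows), or else by symbol, and summed per gene. Rows under the symbol of 1 of the 45 genes were summed for it. Depth is approximate, being read from the smallest steps of FPKM in genes with a single transcript. Read counts were not analysed here.

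Limma 3.58.1 (R 4.3.3) was fitted to log2(FPKM + 1) with a trended prior variance and vector as its sole term. It covered the 10856 genes that reached 1 FPKM in 3 or more libraries, and p-values were adjusted by Benjamini-Hochberg at 0.05. Log2 differences are on this scale, which understates those of low genes. The fit was tested on simulated data. After removal of each vector's mean, libraries that share a replicate number correlated at 0.80, 0.81 and 0.70, and every other pairing was negative. The pairing comes from these values and not from the labels, so the fit was repeated with that number as a block. Each SE is from the fit without the block unless stated, and so includes the spread that paired libraries share. With the block it was 0.09 for Aldoc and 0.06 for Gpi1, against 0.23 and 0.16 without. Shares were compared by exact permutation tests.

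The genes and lists were chosen with earlier results of these data known. All 45 genes are accounted for, and values per library are given for those with the largest differences in each group and for those without overlap. Of further pathway genes, those called, those without overlap, and the 2 largest rises and falls at 5 FPKM or more are named, except 1 gene that is not reported here. Alternatives were pseudocounts, filters, scalings, prior variance, weights, the block, and leaving out each library or pair.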

Additional observations from a re-analysis of the deposited data

How the results depend on the processing

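Over 20 other fits, the log2 difference and call of the 45 genes gave 900 values, and 4 of these changed a call, all in the fit with the block and without both replicate 3 libraries. For 21 of the 45 genes the sign was the same in every fit, for 14 it changed without empty vector replicate 3, and for 7 over pairs 1 and 2 alone. Prdm1 (log2 difference 2.26, limma adjusted p = 0.0567) passed under median-ratio scaling (2.26, adjusted p = 0.0408), with the replicate block (2.26, adjusted p = 0.00498), with array weights (2.42, adjusted p = 0.0101) and with the replicate block after quantile normalization (2.26, adjusted p = 0.00518, added after the data were seen). Leaving out single libraries, its log2 difference ran from 2.11 to 2.42 (adjusted p = 0.0351 without empty vector replicate 2, up to 0.426 without empty vector replicate 3). With the replicate block and without pair 1, 2 or 3 it was 2.16, 2.29 and 2.32 (adjusted p = 0.00738, 0.000867 and 2.86e-12). Without single libraries or pairs the number of the 45 genes called ran from 0 to 2 in each direction, that of further pathway genes from 0 to 8, and the median of the 45 genes from -0.20 to 0.01. Without single libraries the ratio of summed FPKM ran from 0.79 to 0.969 for the pentose phosphate genes, from 0.838 to 0.969 for the pyruvate dehydrogenase step and from 0.927 to 1.03 for the TCA cycle. The replicate block changed no call among the 45 genes over all libraries. Leaving the row of Eno1b out of Eno1, also added later, changed no call. Depth was only estimated, and both shallowest libraries were controls (17.2 and 17.9 M reads, replicates 3 and 1), so its part in the results was not tested.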

Other observations

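Transcript values within a gene were less steady than gene sums. For Pfkm, 1 minor transcript held 12.2%, 7.26% and 26.4% of the gene's FPKM in empty vector replicates 1 to 3 and 0.948%, 8.5% and 0.133% in the Blimp-1 libraries, while the gene itself had a log2 difference of -0.10. For Slc16a3, the main transcript held 50.3% to 78.7% of the gene's FPKM, highest in both replicate 2 libraries. For Hk1, the main transcript held 89.9% to 96.5%.

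The spread between replicates of the 45 genes was wider in controls than with Blimp-1, with a median SD of 0.25 against 0.15 on the log2 scale, beside 0.21 and 0.18 for all genes tested. For 33 of the 45 genes (73.3%) the SD was larger in controls, against 60.8% of all genes. Empty vector replicate 3 lay above both other controls for 36 of the 45 genes, and both shallowest libraries were controls. The part of that library or of depth in this spread was not tested.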
